A study of Homo sapiens with 26 samples.

Results

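The genes of the AP-1 transcription factor and 3 further immediate early genes were followed through the deposited histone mark peak lists. The 10 genes were FOS, FOSB, FOSL1, FOSL2, JUN, JUNB, JUND, EGR1, IER2 and IER3, out of 19856 protein-coding genes in the GRCh37 annotation. They were chosen by name, and every H3K27ac or H3K4me1 peak over the gene body or within 50 kb of either end was taken as theirs. Peaks of all lists of a mark that overlapped were merged into regions. The windows of the 10 genes held 146 of 87570 H3K27ac regions and 116 of 110269 H3K4me1 regions, of which 49 and 73 carried a peak in every list of their mark.

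The lists come from ChIP-seq of H3K27ac, an acetylation of histone H3 found at active promoters and enhancers, and of H3K4me1, a monomethylation of histone H3 found at primed and active enhancers. HCT116, a colorectal carcinoma line with wild-type p53 (WT here), received the vehicle DMSO (0 h) or Nutlin-3a for 1 h or 10 h. Nutlin-3a blocks the binding of HDM2 to p53 and so stabilises p53. An HCT116 derivative named HCT116_RAD21 in the labels (the RAD21 line here) received the same vehicle or drug, and its H3K27ac was profiled at 0 h and 1 h. By the study's methods the cohesin subunit RAD21 carries an auxin-inducible degron tag in this line and is degraded by 5-Ph-IAA added before the drug. The labels do not give that ligand, while the peak names of all 4 RAD21 lists carry rad21KD. Degron tagging, ligand and line cannot be told apart. Each of the 8 groups had 2 lists, 1 per replicate by the labels, which makes 10 H3K27ac lists and 6 H3K4me1 lists. The 10 input libraries were not analysed here.

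AP-1 is a dimer of a FOS family protein (FOS, FOSB, FOSL1, FOSL2) with a JUN family protein (JUN, JUNB, JUND), or of 2 JUN proteins. It binds short palindromic sites and drives genes of proliferation, invasion and stress. Immediate early genes such as FOS, EGR1 and IER2 are transcribed within minutes of a growth factor or stress signal without new protein synthesis, through factors that already sit at their promoters. Serum response factor (SRF) with its ELK cofactors acts at CArG boxes, and CREB family factors act at cyclic AMP response elements (CRE). EGR1 is a zinc finger transcription factor, IER2 a nuclear regulator and IER3 a survival protein. In colorectal carcinoma cells AP-1 is commonly fed by MAP kinase signalling.

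The start-proximal promoter sequences below show the matches to these elements that lie within the printed stretch of selected genes. They run from base -330 to base -51 of the annotated start site on GRCh37, 5′ to 3′ on the strand of the gene, and capitals mark matches to the motifs searched. FOS, FOSB and EGR1 are shown because their promoters fell in acetylation rank at 1 h. JUN is shown because it differed between the lines with the smallest p at 0 h, and JUND because it and FOSB alone hold the full CRE octamer. The stretches lie at chr14:75745201-75745480 (plus strand) for FOS, chr19:45970924-45971203 (plus) for FOSB, chr5:137800838-137801117 (plus) for EGR1, chr1:59249770-59250049 (minus) for JUN and chr19:18392483-18392762 (minus) for JUND. A stretch of 200 bases around the median summit of the acetylated region upstream of FOS, chr14:75725464-75725663 (plus strand), is shown last because that region changed most in the RAD21 line.
FOS: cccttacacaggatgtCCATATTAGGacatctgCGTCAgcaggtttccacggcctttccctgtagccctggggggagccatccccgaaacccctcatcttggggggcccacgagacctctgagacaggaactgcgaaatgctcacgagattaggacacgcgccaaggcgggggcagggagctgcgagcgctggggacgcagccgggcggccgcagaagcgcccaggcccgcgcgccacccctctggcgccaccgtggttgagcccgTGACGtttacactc
FOSB: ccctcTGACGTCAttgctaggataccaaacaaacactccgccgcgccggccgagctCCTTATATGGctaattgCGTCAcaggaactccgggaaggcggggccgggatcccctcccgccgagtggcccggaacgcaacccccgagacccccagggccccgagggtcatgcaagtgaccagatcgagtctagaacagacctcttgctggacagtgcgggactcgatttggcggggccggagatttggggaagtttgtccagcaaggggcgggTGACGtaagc
EGR1: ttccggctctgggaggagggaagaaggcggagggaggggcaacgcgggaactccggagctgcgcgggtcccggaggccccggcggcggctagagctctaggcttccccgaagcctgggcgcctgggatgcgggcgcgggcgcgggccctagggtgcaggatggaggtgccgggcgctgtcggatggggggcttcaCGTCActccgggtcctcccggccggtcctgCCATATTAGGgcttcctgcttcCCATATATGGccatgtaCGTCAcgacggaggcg
JUN: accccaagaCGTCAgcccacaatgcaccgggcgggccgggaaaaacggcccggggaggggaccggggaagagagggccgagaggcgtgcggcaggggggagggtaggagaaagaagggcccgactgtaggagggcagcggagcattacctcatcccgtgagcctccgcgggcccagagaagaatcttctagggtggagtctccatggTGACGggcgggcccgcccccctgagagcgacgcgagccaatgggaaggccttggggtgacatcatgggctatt
JUND: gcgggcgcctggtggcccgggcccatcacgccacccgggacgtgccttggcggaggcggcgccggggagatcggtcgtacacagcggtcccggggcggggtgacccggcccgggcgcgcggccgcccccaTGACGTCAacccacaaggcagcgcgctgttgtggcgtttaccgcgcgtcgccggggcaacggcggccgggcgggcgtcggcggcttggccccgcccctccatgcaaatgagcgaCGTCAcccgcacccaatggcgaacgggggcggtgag
FOS upstream region: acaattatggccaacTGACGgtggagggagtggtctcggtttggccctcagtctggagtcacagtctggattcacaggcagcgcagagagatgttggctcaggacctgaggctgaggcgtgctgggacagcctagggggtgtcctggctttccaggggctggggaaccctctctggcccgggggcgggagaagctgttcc

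Between 1000 bp upstream and 200 bp downstream of the start site, on both strands, a CArG box was found in FOS, FOSB and EGR1, that is in 3 of the 10 genes, against 5.48% of all coding promoters. EGR1 held 5 of them, at -418, -380, -364, -105 and -83, of which the last pair are in capitals in its sequence. FOS held 1 at -314 with a CRE core after it at -297, and FOSB held 1 at -274 with a CRE core after it at -257. The CRE octamer TGACGTCA occurred in FOSB at -325 and in JUND at -200 (2 genes, against 3.75% of coding promoters). The CRE core TGACG, the 5 bases that the octamer begins with, occurred in 9 genes, all but IER3, and in 55.8% of coding promoters. The AP-1 heptamer was searched as TGANTCA, a loose pattern that takes any base at N. It lay at the start site itself in FOSL1 (-1 to 6) and FOSL2 (5 to 11), 2 of 10 genes against 22.2%. No member held a match to the p53 site, a pair of p53 decamers up to 13 bp apart, which 0.126% of coding promoters hold. These are letter matches in a fixed window and show no binding.

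Strength was compared through rank, because the lists carry no read counts. The study gives library statistics in its supplement, and these were not used here. Rank 1 is the peak with the highest -log10 p of its list, and a percentile of 100 is the top. A rank is relative to the other peaks of its list, so a fall in rank does not show a loss of acetylation. The H3K27ac lists held 31640 to 49127 peaks and the H3K4me1 lists 84492 to 92943. The H3K27ac lists came in 2 forms: peak names lacked the word "input" in 3 lists (both WT 0 h lists and WT 1 h replicate 1) and carried it in the other 7. Whether the 3 were called without an input control is not given in the sources used here, and it was not tested. The fold enrichment of the 10 member promoters was 2.67 to 15.7 in the 3 lists and 34.4 to 241.1 in the 7, and mitochondrial peaks occurred in those 3 alone of the 10. Peaks whose -log10 p repeated that of an earlier peak of their list numbered 7543 to 8332 in the 3 lists and 30225 to 40155 in the 7. Such tied peaks shared a rank. Ranks, widths and folds may therefore not mean the same in both forms. All peaks of the RAD21 line and of WT 10 h are of the second form, so the WT 10 h to 0 h and RAD21 to WT 0 h differences cannot be told apart from the form of the names, while the RAD21 1 h to 0 h difference lies within 1 form. Among 10 colonic epithelial markers the promoters of CDX2, EPCAM, CDH1, KRT8 and KRT18 were acetylated in all 10 lists and those of CDX1, VIL1, CDH17, KRT20 and HNF4A in none, and none of the 9 annotated markers of other cell types was.

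All 10 promoters carried an H3K27ac peak in all 10 lists, as did 56.7% of coding promoters. In the 10 lists the median percentile of the members lay between 86.1 and 99.3, and that of all acetylated coding promoters between 80.9 and 87.2. By peak rank FOSB stood highest of them in untreated WT cells, at percentiles of 99.8 and 99.8 in the 2 lists. FOS followed at 99.6 and 99.5, and FOSL1 at 97.6 and 96.3. EGR1 came next at 96.2 and 93.9, and the lists of these 4 genes did not overlap between neighbours in this order. JUN (92.1 and 92.7), JUNB (93.9 and 90.7), JUND (92.6 and 91.6), FOSL2 (90.2 and 91.6) and IER3 (88.6 and 90.5) formed a run in which each gene overlapped its neighbour. IER2 stood lowest, at 76.2 and 72.8.

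**Figure D1:**
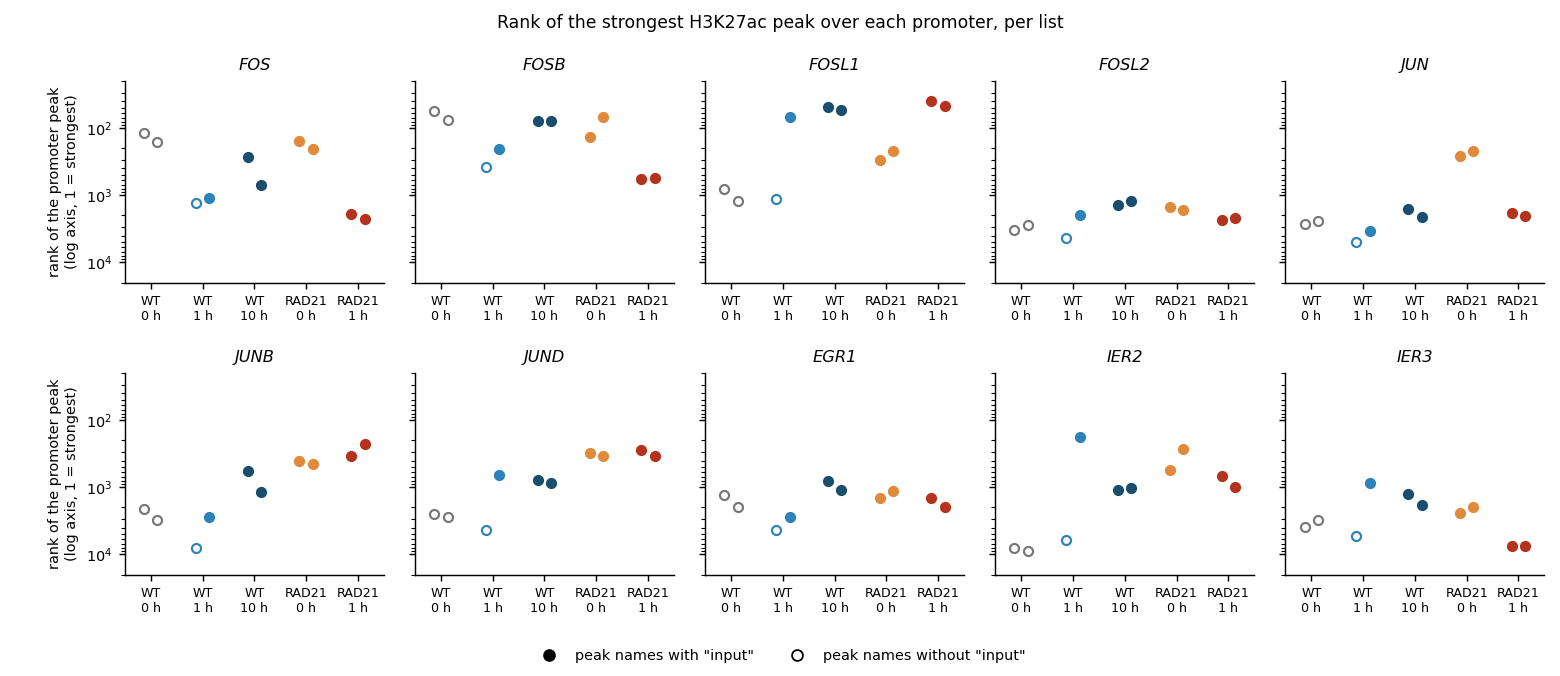
Rank of the strongest H3K27ac peak over each promoter in each of the 10 lists (log axis, rank 1 at the top), with open points for the 3 lists whose peak names lack the word input. FOS and FOSB dropped to worse ranks at 1 h in both lines. JUN went from 2699 and 2402 to 4945 and 3436 in WT. In the RAD21 line JUN went from 259 and 216 to 1858 and 2069, a longer drop on the log axis.

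Among the FOS family, FOS (chr14:75745529-75748933, plus strand), the founding FOS subunit, ranked 120 and 163 in the WT 0 h lists, 1300 and 1090 at 1 h, and 274 and 714 at 10 h. RAD21 lists ranked it 158 and 203 at 0 h, then 1895 and 2240 after 1 h. The 1 h lists lay below the 0 h lists in both lines without overlap, and the WT 10 h lists lay between them. FOSB (chr19:45971253-45978437, plus), a FOS paralogue induced with it, ranked 56 and 76 at WT 0 h, 382 and 205 at 1 h, and 78 and 79 at 10 h. The RAD21 lists put it at 137 and 69 at 0 h and 579 and 559 at 1 h, so again both 1 h lists stood below both 0 h lists. The summits of both genes hardly moved: FOSB peaked between -156 and -137 bp in all 10 lists, and FOS between -177 and -158 bp in 9 lists and at -1403 bp in RAD21 0 h replicate 1.

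FOSL1 (chr11:65659520-65668044, minus), which encodes FRA-1 and is a later, longer-lived FOS family member, ranked 812 and 1214 at WT 0 h and 1132 and 69 at 1 h. It ranked 49 and 54 at WT 10 h, 295 and 219 at RAD21 0 h, and 39 and 47 at RAD21 1 h. Its ranks split by the form of the peak names, from 812 to 1214 in the 3 lists without the word input and from 39 to 295 in the 7 with it. FOSL2 (chr2:28615315-28640184, plus), which encodes FRA-2, split in the same way, with ranks from 2735 to 4414 against 1209 to 2325. Within the RAD21 line FOSL2 ranked 1525 and 1655 at 0 h and 2325 and 2194 at 1 h.

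Among the JUN family, JUN (chr1:59242517-59249720, minus), the main partner of FOS, ranked 2699 and 2402 at WT 0 h, 4945 and 3436 at 1 h, and 1584 and 2110 at 10 h. In the RAD21 line JUN stood far higher at 0 h, at 259 and 216, and fell back to 1858 and 2069 at 1 h. JUNB (chr19:12902300-12904129, plus), a JUN protein that can oppose JUN, ranked 2090 and 3037 at WT 0 h, 8007 and 2762 at 1 h, and 578 and 1170 at 10 h. JUNB ranked 406 and 450 at RAD21 0 h and 338 and 227 at 1 h, above every WT list. JUND (chr19:18390504-18392432, minus), the JUN protein with the steadiest expression in most cells, split by name form: ranks were 2507 to 4375 in the 3 lists without the word input and 281 to 853 in the others. The strongest summit of the JUNB promoter peak lay between 2317 and 2385 bp downstream of the start site in 8 lists and at -1716 and -1720 bp in the 2 RAD21 0 h lists.

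EGR1 (chr5:137801168-137804992, plus) ranked 1296 and 1987 at WT 0 h, 4319 and 2764 at 1 h, and 818 and 1111 at 10 h. EGR1 ranked 1424 and 1132 at RAD21 0 h and 1423 and 1957 at 1 h, which overlapped. IER2 (chr19:13261225-13265725, plus) ranked 8085 and 8902 at WT 0 h and 6207 in WT 1 h replicate 1, but 176 to 1117 in the 7 lists whose names carry the word input. IER3 (chr6:30710976-30712325, minus) ranked 3885 and 3104 at WT 0 h, 5314 and 855 at 1 h, and 1251 and 1819 at 10 h. IER3 went in the RAD21 line from 2418 and 1981 at 0 h to 7588 and 7424 at 1 h, without overlap. The 2 WT 1 h lists, 1 of each name form, disagreed widely at IER2, IER3, JUNB, JUND and FOSL1, and in each of these replicate 2 was the stronger.

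Peak width followed the form of the lists at every member. All 10 promoter peaks were narrower in each of the 3 lists without the word input than in each of the 7 with it, and the share of the window under peaks was lower in the same way for all 10. IER2 peaks were 1086 to 1123 bp wide in the 3 lists and 6952 to 10144 bp in the 7. FOSL1 peaks were 1591 to 1700 bp against 5925 to 18263 bp, and JUND peaks 940 to 1541 bp against 5019 to 10400 bp. The gap was narrower at FOS, with peaks of 1038 to 2513 bp against 3115 to 3991 bp, at EGR1, with peaks of 1727 to 2343 bp against 2919 to 4730 bp, and at FOSB and JUN, with FOSB peaks of 2228 to 2429 bp against 3160 to 4413 bp and JUN peaks of 1922 to 2077 bp against 2800 to 3924 bp. Over all acetylated coding promoters the median width was 1328 to 1370 bp in the 3 lists and 1962 to 2407.5 bp in the 7. Ranks were worse in all 3 than in all 7 lists for 4 genes (FOSL1, FOSL2, JUND and IER2). At IER2, IER3, JUNB and JUND, peaks in the WT 0 h lists touched the promoter without covering the start site, which all 7 lists of the other form covered.

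**Figure D2:**
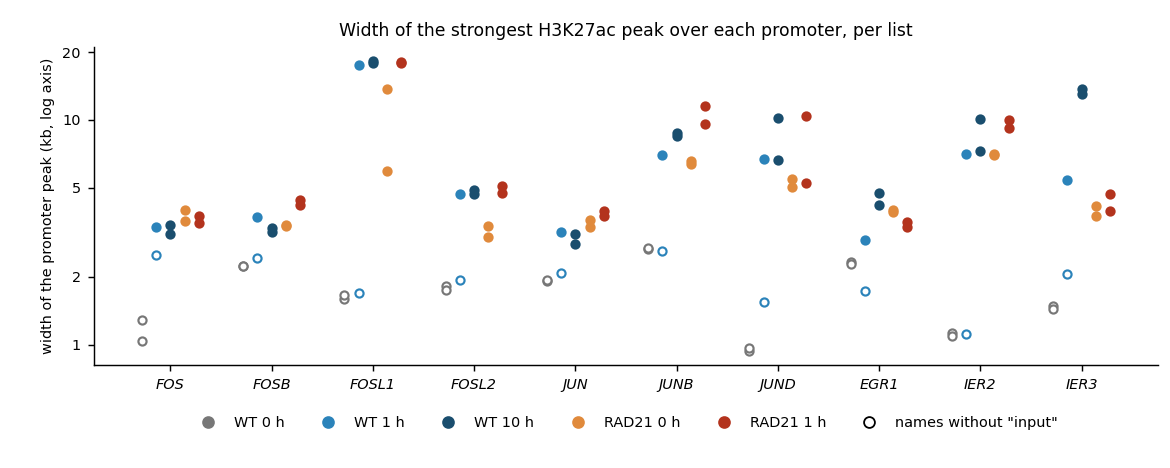
Width in kb (log axis) of the strongest H3K27ac peak over each promoter, 1 point per list, coloured by group and open for the 3 lists whose names lack the word input. For all 10 genes the open points lie below every filled point, and the gap is widest at IER2, FOSL1 and JUND.

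In untreated against 1 h treated WT cells, the question was whether early p53 activation moved the acetylation rank of these genes. The ranks of FOS, FOSB and EGR1 fell. A change is given as the difference in the normal score of a region's rank among the 18757 regions acetylated in every list (1 unit is 1 SD of a normal distribution), from 1 limma fit with 2 lists per group and Benjamini-Hochberg adjustment over all 18757. Some merged promoter regions also covered exons of other genes. These were PRDX2 at JUNB, CCDC85B and FIBP at FOSL1, FLOT1 at IER3, IQCN at JUND and STX10 at IER2. FOS fell by 0.91 ± 0.16 (SE, adjusted p = 0.00129), FOSB by 0.52 ± 0.17 (adjusted p = 0.0317) and EGR1 by 0.47 ± 0.14 (adjusted p = 0.0269). No member promoter rose: FOSL1 stood at 0.51 (adjusted p = 0.175), IER2 at 0.66 (0.208), IER3 at 0.24 (0.504), JUND at 0.19 (0.587) and FOSL2 at -0.0001 (1), and JUN stood at -0.33 (0.0717) and JUNB at -0.48 (0.117).

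Over the whole windows 4 of 49 member regions were higher and 8 lower at WT 1 h, against 14.3% higher and 14.8% lower among all regions tested. The member median was 0.07 and that of all regions -0.01. Away from the promoters, the region 13982 to 17906 bp downstream of the FOS start (chr14:75759513-75763437, over the non-coding gene LINC01220) fell with FOS, from percentiles of 96.8 and 98.0 to 89.2 and 92.3, a change of -0.75 (adjusted p = 0.00198). The region over the HOOK2 promoter in the JUNB window (chr19:12884687-12891065) fell from 97.8 and 97.9 to 90.7 and 93.1 (-0.75, adjusted p = 0.000959). The region over the ERCC1 promoter next to FOSB (chr19:45980664-45982974) fell from 99.8 and 99.8 to 98.6 and 96.7 (-0.91, adjusted p = 0.00315). Higher were an exonic region inside FOSL2 (chr2:28630976-28633399), from 36.4 and 28.9 to 48.3 and 59.2 (0.72, adjusted p = 0.0085), the LSM4 promoter region in the JUND window (0.54, adjusted p = 0.00566) and the NACC1 and TRMT1 promoter region in the IER2 window (0.74, adjusted p = 0.00817).

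The WT 1 h calls rested on the measure ranked. With fold enrichment ranked in place of -log10 p, no member region passed the threshold (9 at an unadjusted p under 0.05 in limma) and none of all 18757 regions did (3706 at an unadjusted p under 0.05). FOS then stood at -1.13 (adjusted p = 0.221), FOSB at -0.45 (0.64) and EGR1 at 0.42 (0.54), a turn of direction for EGR1. The count of 12 calls became 5 without WT 0 h replicate 1, 5 without WT 0 h replicate 2 and 23 without WT 1 h replicate 1. FOS kept its call without any single list, while EGR1 lost it without either WT 0 h list or WT 1 h replicate 1, and FOSB without either WT 0 h list or either RAD21 1 h list. The 2 WT 1 h lists, which differ in the form of their names, pulled other genes apart. Without WT 1 h replicate 2, so that both groups shared 1 form, JUN (-0.46), JUNB (-0.90), JUND (-0.35, adjusted p = 0.0288) and IER3 (-0.32, adjusted p = 0.0487) passed as lower. Without WT 1 h replicate 1, IER2 (1.58), FOSL1 (1.07), IER3 (0.79) and JUND (0.73) passed as higher. Among the regions away from the promoters, the calls on the NACC1 and TRMT1 region (without either WT 0 h list), the LSM4 region (without WT 0 h replicate 1) and the exonic FOSL2 region (without WT 0 h replicate 2) were lost.

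**Figure D3:**
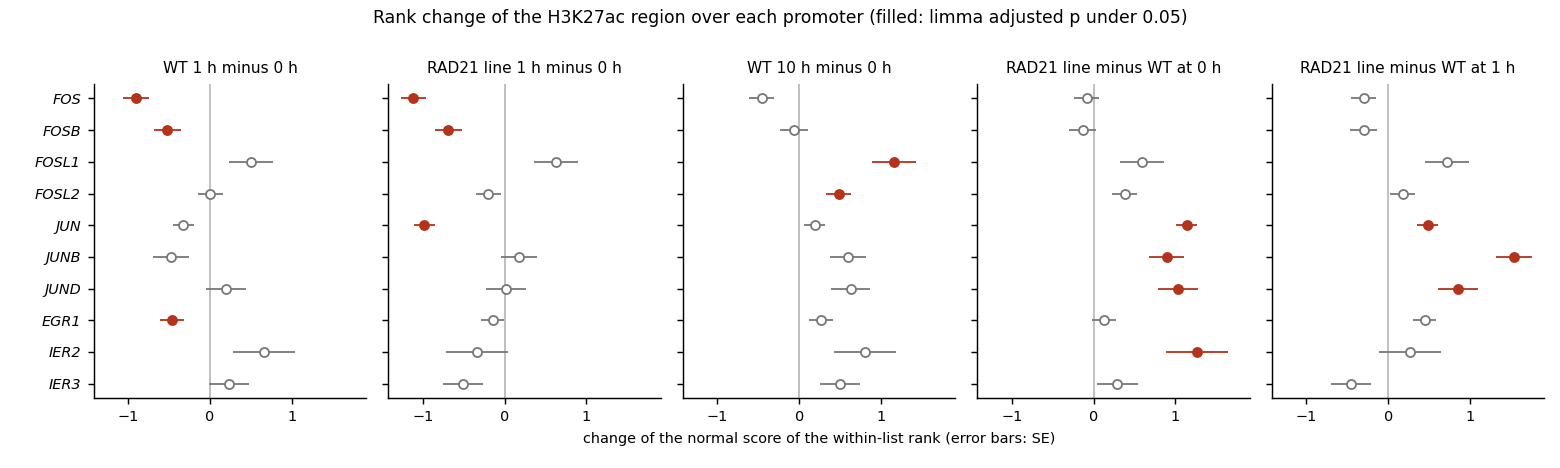
Change of the normal score of the promoter region's rank in 5 comparisons (points with SE bars, filled where the limma adjusted p was under 0.05). FOS and FOSB are filled on the lower side at 1 h in both lines, EGR1 in WT and JUN in the RAD21 line, while JUN, JUNB and JUND are filled on the higher side in both comparisons of the lines.

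In the RAD21 line the ranks of FOS and FOSB were again lower at 1 h than at 0 h, and that of JUN fell by about as much as that of FOS. FOS fell by 1.12 ± 0.16 (adjusted p = 0.000238), JUN by 0.98 ± 0.13 (adjusted p = 0.000168) and FOSB by 0.69 ± 0.17 (adjusted p = 0.00842). EGR1 did not pass (-0.15 ± 0.14, adjusted p = 0.474), nor did IER3 (-0.51, adjusted p = 0.14), FOSL1 (0.62, 0.102), IER2 (-0.34, 0.543), FOSL2 (-0.20, 0.35), JUNB (0.17, 0.591) or JUND (0.01, 0.973). Of the 49 member regions 5 were higher and 11 lower, against 14.4% and 13.4% of all regions, with medians of -0.05 for the members and 0.04 for all. All 4 lists of this comparison share 1 form of peak names. Fold enrichments at these promoters overlapped between 0 h and 1 h. At FOS they were 131.7 and 106.6, then 82.7 and 109.2. At JUN they were 116.7 and 105.3, then 59.3 and 112.3, and at FOSB 136.5 and 112.5, then 87.5 and 159.8.

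The acetylated region upstream of FOS changed most. It spans chr14:75724073-75727429, from -21458 to -18102 bp of the FOS start, and overlaps no coding gene. Its percentiles were 99.5 and 99.5 at RAD21 0 h and 87.5 and 87.1 at 1 h, a fall of 1.66 ± 0.12 (adjusted p = 8.49e-06). In WT it stood at 86.5 and 87.9 at 0 h, 85.7 and 87.3 at 1 h, and 92.1 and 93.8 at 10 h, so RAD21 0 h stood apart from every other group. The downstream FOS region over LINC01220 fell from 99.1 and 99.2 to 93.3 and 92.2 in the RAD21 line (-1.05, adjusted p = 0.000179). The FOS promoter and both flanking regions thus fell in rank in this line. In the FOSB window the region at chr19:45951734-45960139, in an ERCC1 intron, fell from 98.6 and 98.4 to 92.5 and 86.8 (-1.03, adjusted p = 0.000272). Rising instead were the HOOK2 promoter region in the JUNB window, from 92.5 and 90.4 to 97.7 and 97.7 (0.77, adjusted p = 0.000567), the LSM4 promoter region in the JUND window (0.66, adjusted p = 0.00176) and a region over a long non-coding RNA beyond the 3′ end of JUN (chr1:59192547-59194324), from 24.0 and 25.9 to 56.2 and 50.2 (0.91, adjusted p = 0.00659).

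The calls on FOS, on JUN and on both FOS flanking regions held without any single list and with only the lists named with input. FOSB lost its call without RAD21 0 h replicate 2, RAD21 1 h replicate 1 or RAD21 1 h replicate 2 (adjusted p from 0.0579 to 0.0864). The count of 16 became 10 without RAD21 1 h replicate 1, and the region beyond the 3′ end of JUN lost its call without that list (0.75, adjusted p = 0.0835). FOSL1, IER2 and IER3 passed without either WT 1 h list, their changes being unaltered at 0.62, -0.34 and -0.51. With fold ranked, no member region passed (12 at an unadjusted p under 0.05 in limma, smallest adjusted p 0.0629), nor did any of the 18757 regions (2667 at an unadjusted p under 0.05), with FOS at -1.09, JUN at -1.24 and the upstream FOS region at -1.74.

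**Figure D4:**
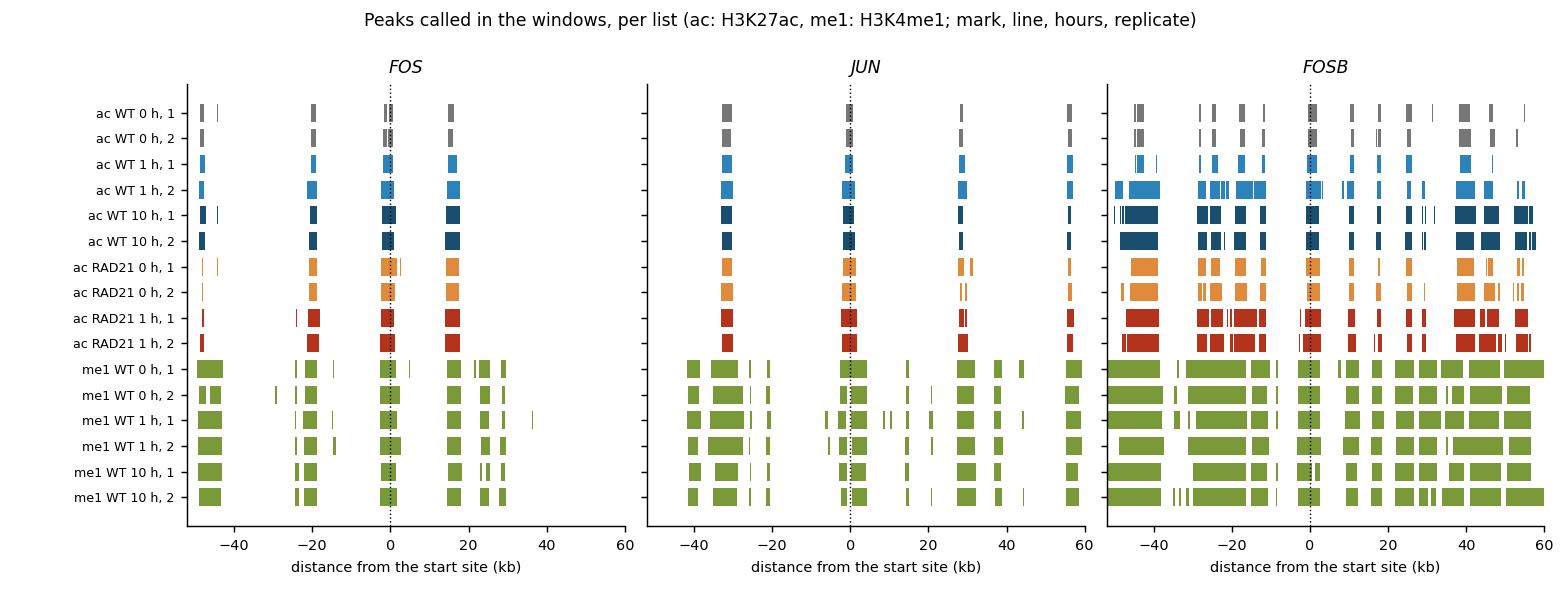
Peaks called around FOS, JUN and FOSB in each of the 16 lists, by distance in kb from the start site (dotted line), with H3K27ac lists above and the 6 H3K4me1 lists in green below. The FOS promoter and its flanking regions carry peaks in every list of both marks, and H3K27ac peaks are narrow in the first 3 lists and wide in the other 7.

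The difference between the 1 h changes of the RAD21 line and of WT was tested as an interaction. JUN fell further in the RAD21 line, by a difference of -0.65 ± 0.18 (adjusted p = 0.0208). For FOS (-0.21 ± 0.22, adjusted p = 0.519), FOSB (-0.16 ± 0.24, 0.654) and EGR1 (0.32 ± 0.20, 0.277) the difference did not pass the threshold. Thus EGR1 passed at 1 h in WT and not in the RAD21 line, without a difference shown between them. Of the member regions 2 showed a higher change in the RAD21 line and 6 a lower one, against 11.7% and 11.0% of all regions, with medians of -0.06 and 0.05.

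Apart from the JUN promoter, the lower changes were those of the upstream FOS region (-1.56 ± 0.17, adjusted p = 5.91e-05), of 3 regions within the ERCC1 gene upstream of FOSB, and of a region over the non-coding gene HCG20 in the IER3 window (-1.32, adjusted p = 0.0115). In the FOSB window these were chr19:45951734-45960139 (-1.15, adjusted p = 0.00183), chr19:45945621-45949653 (-1.07, adjusted p = 0.00305) and chr19:45942314-45945504 (-0.53, adjusted p = 0.0357). In the second of these the percentiles were 62.4 and 60.3 at WT 0 h, 63.0 and 78.2 at WT 1 h, 95.0 and 95.8 at RAD21 0 h, and 88.6 and 81.2 at RAD21 1 h. The IER3 region (chr6:30730680-30733104) had percentiles of 54.9 and 49.2 at WT 0 h, 50.5 and 79.8 at WT 1 h, 61.7 and 65.4 at RAD21 0 h, and 49.5 and 47.3 at RAD21 1 h. The WT 1 h lists disagreed there. The higher changes were those of the HOOK2 promoter region near JUNB (1.53, adjusted p = 9.09e-05) and of an LSM4 region in the JUND window (chr19:18410850-18425084, 0.73, adjusted p = 0.00636). The interaction contains the WT 1 h and 0 h lists of both name forms, and with a term for the form 15 member regions passed instead of 8. The count was 5 without WT 0 h replicate 2, 21 without WT 1 h replicate 1 and 15 without WT 1 h replicate 2. JUN lost its interaction call without any 1 of 6 lists (adjusted p from 0.052 to 0.0916), these being both WT 0 h, both RAD21 0 h and both RAD21 1 h lists. Without WT 1 h replicate 1 the interaction also passed for IER2 (-1.92), IER3 (-1.30), JUND (-0.72) and FOSL2 (-0.47), and without WT 1 h replicate 2 for JUNB (1.07), FOSL1 (0.69) and EGR1 (0.47). With fold ranked 0 member regions passed (6 at an unadjusted p under 0.05 in limma, smallest adjusted p 0.166), as did 0 of all regions (2608 at an unadjusted p under 0.05).

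**Figure D5:**
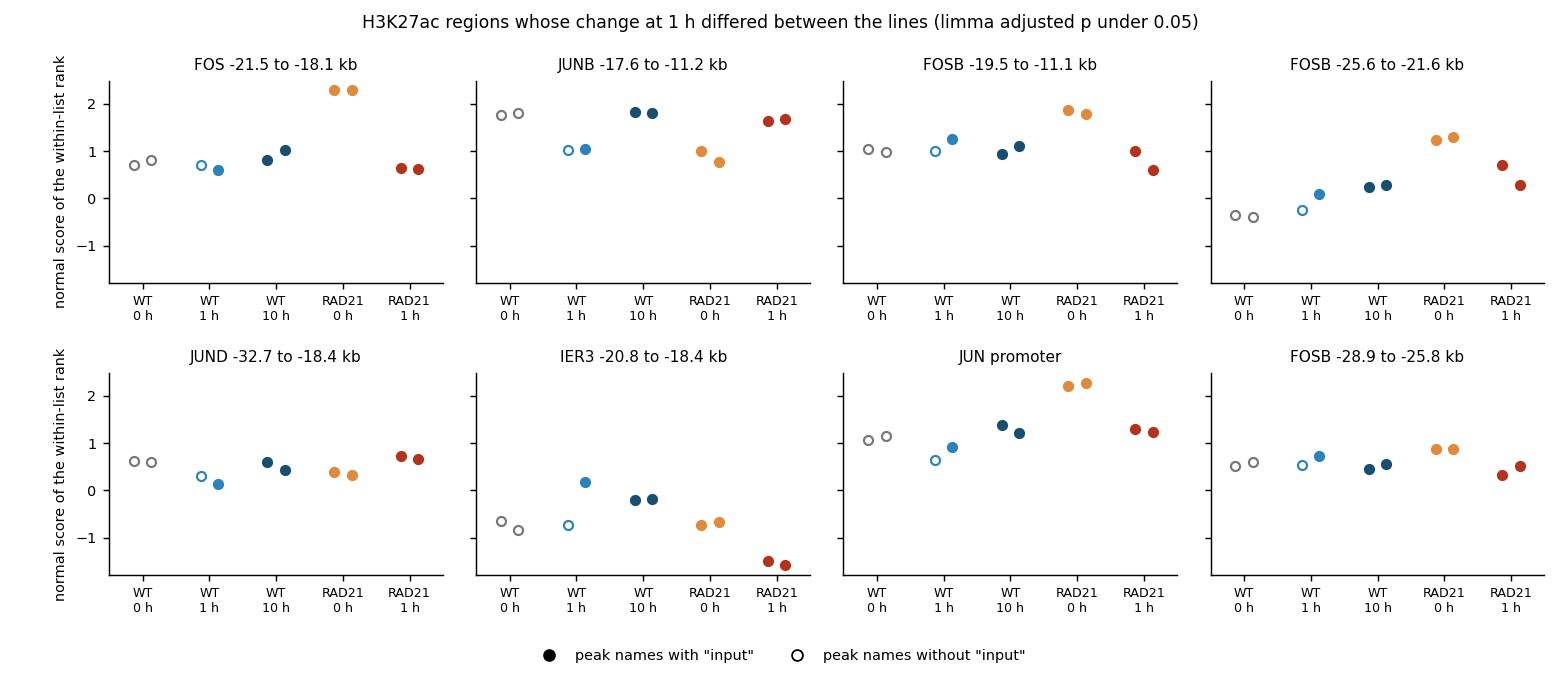
Normal score of the within-list rank in each H3K27ac list for the 8 member regions whose 1 h change differed between the lines (distances in kb from the named gene's start site, open points for lists named without input). The region upstream of FOS and the JUN promoter stand highest in the 2 RAD21 0 h lists, and the region near JUNB is the only panel besides JUND where the RAD21 line rose.

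Between the lines at 0 h, the JUN family stood higher in the RAD21 line. JUN was higher by 1.14 ± 0.13 (adjusted p = 2.66e-05), JUND by 1.03 ± 0.24 (0.0051) and JUNB by 0.89 ± 0.22 (0.00632), and IER2 by 1.27 ± 0.38 (0.0189). At JUNB the strongest promoter summit lay at -1716 and -1720 bp in the RAD21 0 h lists and at 2358 and 2317 bp in the WT 0 h lists. At IER2 the summit lay at 1925 and 1890 bp in the RAD21 0 h lists and at 566 and 638 bp in the WT 0 h lists. At JUND it lay at 399 and 943 bp against -604 and -587 bp. The JUNB, IER2 and JUND values may thus each compare different peaks of 1 merged region. FOS (-0.09), FOSB (-0.13), EGR1 (0.13), IER3 (0.29), FOSL2 (0.38) and FOSL1 (0.60) did not pass the threshold. Of the 49 regions 12 were higher and 6 lower, against 16.8% and 20.7% of all regions, with medians of 0.18 and -0.06. Outside the promoters the higher regions were led by the upstream FOS region (1.53), the ERCC1 intron region at chr19:45945621-45949653 near FOSB (1.64, adjusted p = 4.45e-06) and a region upstream of IER2 (chr19:13249392-13256671, 1.23, adjusted p = 0.000187). Lower in the RAD21 line were the HOOK2 promoter region near JUNB (-0.89), the region beyond the 3′ end of JUN (-1.22) and a region at the far upstream end of the FOS window (chr14:75696479-75698315, -1.21, adjusted p = 0.00371).

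All WT 0 h lists have names without input and all RAD21 lists names with it, so at 0 h line and form cannot be told apart. With a term for the form, estimated from the 2 WT 1 h lists alone, JUND stood at -0.05 (adjusted p = 0.864), JUNB at 0.05 (0.885) and IER2 at -0.57 (0.0284), so these calls ended or turned, while JUN kept its call (0.87). The region at the far upstream end of the FOS window lost its call (-1.12, adjusted p = 0.0762), and the other regions named above kept theirs. JUNB lost its call without WT 0 h replicate 2 (0.78, adjusted p = 0.07) and IER2 without any 1 of the 4 lists compared. The count of 18 was 31 without either WT 1 h list, when FOSL1, FOSL2 and IER3 also passed. At 1 h, JUNB (1.54 ± 0.22, adjusted p = 0.00157), JUND (0.85 ± 0.24, 0.0374) and JUN (0.48 ± 0.13, 0.0298) were again higher in the RAD21 line. Of the regions 8 were higher and 2 lower, against 5.68% and 6.16%. With only the lists named with input, which leaves 1 WT list at 1 h assumed to vary like the others, JUNB kept its call, while JUN (0.35, adjusted p = 0.0639) and JUND (0.31, adjusted p = 0.112) did not, and IER2 turned from 0.27 to -0.65 (adjusted p = 0.00687). The count of 10 at 1 h was 3 without either RAD21 1 h list and 22 without WT 1 h replicate 2. At 1 h JUN lost its call without either RAD21 1 h list or either WT 0 h list, and JUND without any 1 of 9 lists, all but WT 1 h replicate 2. FOSL1 (1.28), IER2 (1.19), EGR1 (0.60) and FOSL2 (0.44) passed without WT 1 h replicate 2, and IER3 (-1.01) without WT 1 h replicate 1. With fold ranked 0 of the member regions passed at 1 h (14 at an unadjusted p under 0.05 in limma, smallest adjusted p 0.151), and 0 of all regions (3304 at an unadjusted p under 0.05).

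After 10 h in WT, FOSL1 (1.16 ± 0.27, adjusted p = 0.0121) and FOSL2 (0.48 ± 0.15, adjusted p = 0.044) were higher than at 0 h. FOS itself stood at -0.46 (adjusted p = 0.0567), FOSB at -0.06 (0.822) and EGR1 at 0.27 (0.205). JUN stood at 0.19 (0.316), JUNB at 0.59 (0.0728), JUND at 0.63 (0.0862), IER2 at 0.80 (0.155) and IER3 at 0.50 (0.173). Of the 49 regions 11 were higher and 2 lower, against 9.7% and 8.56% of all regions, with medians of 0.19 and -0.04. The exonic FOSL2 region rose to percentiles of 71.3 and 72.5 (1.12 ± 0.17, adjusted p = 0.00173). The HCG20 region at chr6:30733242-30739842 near IER3 (0.69, adjusted p = 0.0106) and the ERCC1 intron region near FOSB (0.64, adjusted p = 0.012) also rose. The lower pair were the ERCC1 promoter region near FOSB (-0.91, adjusted p = 0.00634) and a region downstream of EGR1 outside any gene (chr5:137826977-137828987), which went from 80.2 and 79.8 at 0 h to 70.9 and 70.1 at 1 h and 73.1 and 73.5 at 10 h (-0.80, adjusted p = 0.00352).

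The 10 h and 0 h lists in WT differ throughout in the form of their names. With a term for the form, FOSL1 stood at 0.02 (adjusted p = 0.967) and FOSL2 at -0.05 (0.911), and 5 member regions passed, 1 higher and 4 lower. Lost too were the region downstream of EGR1 (-0.40, adjusted p = 0.285), the ERCC1 promoter region (-0.39, 0.318), the ERCC1 intron region (0.31, 0.426) and the HCG20 region (0.28, 0.455), while the exonic FOSL2 region kept its call (1.24, 0.0259). The count of 13 was 5 without WT 0 h replicate 1, 3 without WT 0 h replicate 2, 5 without WT 10 h replicate 1, 2 without WT 10 h replicate 2 and 22 without either WT 1 h list. FOSL1 lost its call without any 1 of the 4 lists compared and FOSL2 without any 1 of 8 lists, all but the WT 1 h pair. Without either WT 1 h list FOS (-0.46, adjusted p = 0.00556 and 0.00569) passed as lower, as it did without WT 10 h replicate 1 (-0.66), and JUNB, JUND, IER2 and IER3 passed as higher. The calls on the ERCC1 promoter region, the ERCC1 intron region and the HCG20 region were lost without 3, 4 and 2 of the 4 lists compared, the HCG20 region keeping its call without either replicate 1.

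No H3K4me1 region of these genes passed the test over the time course. All 10 promoter windows carried an H3K4me1 peak in all 6 lists, as did 89.2% of the coding promoters acetylated in every list. The start site itself was under a methylated peak in all 6 lists for EGR1, FOS and FOSB, in 5 for JUNB and IER3, in 3 for FOSL2, in 1 for JUN and in none for FOSL1, IER2 and JUND. Among acetylated coding promoters 36.4% were covered in all 6 lists and 28.2% in none. FOS, FOSB and EGR1, the members with the CArG box, were thus also those whose start site lay within H3K4me1 in every list, which is given as a description over 3 genes. By rank FOSL1 stood highest, at percentiles of 99.8 to 99.9, within a peak of 17645 to 18343 bp. IER3 lay in the widest peaks, of 50208 to 58928 bp. FOS stood at 74.6 to 82.3, and JUN lowest and most variable, from 59.5 to 88.3.

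Of the 73 member regions methylated in every list, 0 passed the limma threshold at 1 h and 0 at 10 h, against 0.595% and 0.638% of the 60476 regions tested. At an unadjusted p under 0.05 there were 12 at 1 h and 2 at 10 h (9 and 3 with fold ranked). The smallest adjusted p was 0.0648 at 1 h, for the JUN promoter (0.83 ± 0.19), whose percentiles were 65.8 and 75.8 at 0 h, 70.0 and 88.3 at 1 h, and 59.5 and 78.5 at 10 h. These overlapped, and at each time replicate 2 was the higher. FOS (-0.06 ± 0.18), FOSB (-0.10 ± 0.20) and EGR1 (0.11 ± 0.19), whose acetylation rank fell at 1 h, had H3K4me1 changes within their SE. In simulated data of this spread, planted changes of 1 unit, above the 0.83 of the JUN promoter, were not recovered. The counts of 0 therefore do not show that H3K4me1 stayed the same.

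Acetylated regions that appeared or vanished were counted as called in both lists of the later group and neither of the earlier, or the reverse. With 2 lists against 2 an exact permutation test cannot reach 0.05, so these are counts with no test. In WT, 2 of 146 member regions were gained and 2 lost at 1 h, against 1.51% and 1.32% of all regions. The gained pair lay in the FOSL2 window (chr2:28668490-28668928) and the IER3 window (chr6:30662547-30663813), and both were gained at 1 h in the RAD21 line as well. At 10 h 21 were gained and 2 lost, against 11.4% and 1.9%. The strongest gained at 10 h was chr5:137849705-137851231, in an ETF1 intron downstream of EGR1 (mean percentile 63.0). Next came chr2:28618454-28619803 in FOSL2 (55.4) and the PPM1N and RTN2 promoter region downstream of FOSB, level with a region farther downstream (50.5 each). The EGR1 region was already called in both RAD21 0 h lists and the PPM1N and RTN2 region in 1 of them. Most of the 21 were called in at least 1 RAD21 0 h list. The WT 10 h and 0 h lists differ in the form of their names, from which these gains cannot be told apart. Of the 21, 7 lay in the EGR1 window, 4 in that of IER2 and none in those of FOS and JUN. Most of those in the EGR1 window lay within the neighbouring genes KDM3B, REEP2 and ETF1. The lost pair were chr2:28672633-28673385 in the FOSL2 window and chr5:137785280-137785921 upstream of EGR1. In the RAD21 line 10 were gained and 2 lost at 1 h, against 4.6% and 2.87%. The lost pair lay within ETF1, 53161 to 54418 bp and 48537 to 50063 bp downstream of the EGR1 start. None of these was one of the 10 promoters.

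These counts moved with single lists. Gains in WT at 1 h numbered 30 without WT 1 h replicate 1, the list named without input, and losses 4, 5 and 4 without WT 0 h replicate 1, WT 0 h replicate 2 and WT 1 h replicate 2. At 10 h losses were 4 and 5 without WT 0 h replicate 1 or 2. Gains in the RAD21 line were 17 and 22 without RAD21 1 h replicate 1 or 2, and losses 9, 11 and 4 without RAD21 0 h replicate 1, RAD21 0 h replicate 2 or RAD21 1 h replicate 2. H3K4me1 regions gained and lost were 2 and 0 of 116 at 1 h, against 3.3% and 1.75%, and 3 and 1 at 10 h, against 2.63% and 2.28%. The H3K4me1 gains were chr19:12855765-12856413 near JUNB and chr1:59254804-59256192 near JUN at 1 h, and 2 regions near FOSL1 and 1 near EGR1 at 10 h. The 1 h gains were 4 without WT 0 h replicate 1 and 10 without WT 1 h replicate 2, and the 10 h gains 8 without WT 10 h replicate 1. The 1 h losses were 1, 13, 3 and 2 without WT 0 h replicate 1, 0 h replicate 2, 1 h replicate 1 and 1 h replicate 2, and the 10 h losses 2, 13, 2 and 5 without WT 0 h replicate 1, 0 h replicate 2, 10 h replicate 1 and 10 h replicate 2.

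Most acetylated regions in the windows touched an H3K4me1 region, as they did over the genome. Of the H3K27ac regions called in both lists of a WT time point, 55 of 55 at 0 h, 52 of 52 at 1 h and 67 of 75 at 10 h shared at least 1 bp with an H3K4me1 region called in both lists, or 100.0%, 100.0% and 89.3%, beside 97.8%, 98.4% and 82.2% over the genome. Of the methylated regions 29 of 80, 32 of 80 and 26 of 78 overlapped no such acetylated region. Of the 146 H3K27ac regions 62 overlapped a coding exon, 32 lay in introns only and 52 outside coding genes. Of the 146, 48 were called in 1 list only. The number of regions differed between genes: IER3 held 26, FOSB 24 and IER2 20, while JUN held 5 and FOS 7. At FOS, 4 of the 7 carried a peak in every list, namely the promoter, its upstream and downstream flanking regions and the region at the far upstream end. Own promoters made up 10 of the 49 regions seen in every list, promoters of other genes 14 and regions with no coding promoter 25.

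Around the median summits of the 49 regions, in windows of 500 bp, the AP-1 heptamer occurred in 11, against 22.9% of all 18757 regions, and the CRE core in 13, against 34.2%. A CArG box occurred in 3, all own promoters (1.71% of all regions), the CRE octamer in 2 (1.79%) and the p53 site in 0 (0.176%). The region at the far upstream end of the FOS window held a match to the loose AP-1 pattern, TGAATCA. The upstream FOS region printed above held CRE cores and neither CArG box nor AP-1 heptamer.

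The wider pathway was counted over the promoters of 101 further genes in 4 classes, of which 92 were acetylated in every list and tested. At WT 1 h 19 were higher and 9 lower, where 16.8% and 16.9% of the 9957 regions over coding promoters were. Among the 38 other immediate early genes tested 11 were higher and 4 lower, led by PLK3, a stress kinase gene (0.83), and TRIB1, a pseudokinase gene (1.38), on the higher side. EGR2, a paralogue of EGR1, was lower (-1.15). Among the 12 AP-1 partners 0 were higher and 3 lower, with DDIT3 at -0.85. In the RAD21 line at 1 h the other immediate early genes went 3 higher and 10 lower, with EGR3 at -1.08. Of the 21 upstream regulators 3 were higher and 2 lower there, with SRF at -0.91. At WT 1 h SRF was higher (0.48). MAFF, a small MAF partner gene, was higher in the RAD21 line (0.96). Over the 92 promoters 10 were higher and 15 lower in the RAD21 line, beside 17.4% and 12.9% of regions over coding promoters. With fold ranked, none of the pathway promoters passed at 1 h in either line, as none of all regions did.

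The interaction was positive for 9 and negative for 14 pathway promoters, beside 14.9% and 11.7% of regions over coding promoters. Among them were PLK3 (-1.52) and SRF (-1.39) on the negative side and MAFF (1.13) and DDIT3 (0.93) on the positive. Of the other immediate early genes 2 were positive and 8 negative. At WT 10 h 15 were higher and 2 lower, beside 5.06% and 10.5% over coding promoters, led by ELK3 (1.29), an SRF cofactor gene, and TRIB1 (1.21), with EGR3 (-0.44) and EGR2 (-0.46) lower. Between the lines at 0 h 22 stood higher in the RAD21 line and 13 lower, beside 17.0% and 23.5%, with KLF4 (1.30) and PLK3 (1.25) having the smallest p on the higher side and TNFAIP3 (-0.56) and EGR2 (-0.61) on the lower. At 1 h 7 stood higher and 5 lower, beside 6.66% and 5.39%, with MAFG at 1.18 and KLF2 at 0.61 against EGR3 at -0.77 and MMP14 at -1.02. For H3K4me1 0 of 98 pathway promoters passed in limma at either time (14 and 10 at an unadjusted p under 0.05), and 1 did at 1 h without either WT 10 h list.

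The pathway counts moved with single lists and with the form of the names. The 28 calls at WT 1 h became 12 and 13 without WT 0 h replicate 1 or 2 and 52 without WT 1 h replicate 1. The 17 at WT 10 h became 7 with a term for the form, 2 and 3 without WT 0 h replicate 1 or 2, 4 and 5 without WT 10 h replicate 1 or 2, 11 without either RAD21 1 h list and 34 without either WT 1 h list. The 25 in the RAD21 line became 46 with only lists named with input, 49 with the term, 12 without either RAD21 0 h list, 14 and 9 without RAD21 1 h replicate 1 or 2, and 50 and 49 without WT 1 h replicate 1 or 2. Between the lines the 35 calls at 0 h became 20 with the term, 21 and 23 without RAD21 0 h replicate 1 or 2, and 23 and 20 without WT 0 h replicate 1 or 2. The 12 at 1 h became 31 with only lists named with input, 32 with the term, 2 and 4 without RAD21 1 h replicate 1 or 2, and 33 and 43 without WT 1 h replicate 1 or 2. The 23 of the interaction became 35 with the term, 47 without WT 1 h replicate 1, and 12 to 15 without any 1 of both WT 0 h, both RAD21 0 h and both RAD21 1 h lists.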

How the data were processed

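H3K27ac and H3K4me1 ChIP-seq peaks of HCT116 and of the HCT116_RAD21 line were used as deposited, in 16 lists (10 and 6) of 8 groups with 2 replicates each. The authors trimmed reads with Trim Galore 0.6.6, aligned them to GRCh37.p13 with Bowtie2 2.3.2 and called peaks with MACS2 2.2.7.1, with an input as control by their description, as narrow peaks for H3K27ac and broad peaks for H3K4me1, per the study's methods and the submitters' processing notes. Whether that control was used for the 3 H3K27ac lists whose peak names lack the word input is not given in the sources used here. Each deposited peak carries a fold enrichment over background, a -log10 p-value and a -log10 q-value, and no read count. Counting error is therefore unknown, and library depth was not taken into account. Whether replicates were separate cultures is not in the labels, and p-values measure only the spread between lists.

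Peaks on the 25 primary sequences were ranked within each list by -log10 p. Peaks of 1 mark sharing at least 1 bp were merged across lists, each region taking its strongest peak per list, so a region over a promoter can be wider than the promoter peak. Promoters spanned 1000 bp upstream to 200 bp downstream of the start site (GENCODE 44 mapped to GRCh37). Normal scores of ranks over regions called in every list were fitted in limma 3.58.1 (R 4.3.3, trended variance, all groups of a mark together), with a threshold of 0.05 after Benjamini-Hochberg adjustment over all regions of the mark, tested on simulated data. Alternatives ranked fold, kept peaks with -log10 q of at least 5, required peaks to cover 50% of a region, added a replicate block or a term for the form of the peak names, used only lists named with input, or left out each list in turn. Named regions were the 10 promoters and, per comparison, the 3 other regions passing in each direction with the smallest p, the 3 gained and 3 lost regions of highest mean percentile, and up to 2 pathway promoters in each direction. The remaining regions whose 1 h change differed between the lines were added after their values were seen. Tables used pandas 2.3.3 and sequences pysam 0.24.0. The members, pathway lists and tests were chosen with earlier results of these data known. One pathway promoter that the rule named is not reported here.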

Additional observations from a re-analysis of the deposited data

Results flagged for a closer look

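In 8 member regions the 1 h change in H3K27ac rank differed between the RAD21 line and WT by the test of the difference itself (limma interaction, adjusted p under the threshold). The differences, as the RAD21 change minus the WT change in normal score, were -1.56 at the region upstream of FOS (-21458 to -18102 bp), 1.53 at the HOOK2 promoter region near JUNB, -1.15 and -1.07 at the ERCC1 intron regions -19520 to -11115 bp and -25633 to -21601 bp from FOSB, and -0.53 at the neighbouring region -28940 to -25750 bp. The others were -1.32 at the HCG20 region near IER3, 0.73 at the LSM4 region near JUND and -0.65 at the JUN promoter. The 4 RAD21 lists share 1 form of peak names, while the WT 0 h lists and 1 of the 2 WT 1 h lists have the other. Its part in these differences was not tested apart from the term for the form, with which 15 member regions passed. Depth, which the lists do not give, was not tested.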

How the results depend on the processing

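Of the 49 calls on named regions, all 49 held with the replicate block, all 46 that could be fitted held with peaks of -log10 q of at least 5, and 14 of 17 held with only the lists named with input. With fold ranked 15 held, 33 were lost and 1 reversed, and with the term for the form of the peak names 38 held, 8 were lost and 3 reversed. The 15 held with fold ranked were 6 at WT 10 h and 9 between the lines at 0 h. These comparisons cannot be told apart from the form of the names, and no call of the other comparisons held. Of all regions, fold ranking called 19.7% at WT 10 h and 22.0% between the lines at 0 h. Leaving out 1 list at a time kept 423 of 490 calls and lost 67, with none reversed. Replicate numbers did not pair the samples (correlations of deviations of same-numbered lists from -0.0501 to 0.0452 for H3K27ac and 0.0008 to 0.0074 for H3K4me1), and the block changed no call on a named region, while 1 pathway promoter passed for H3K4me1 at 1 h with it, against 0. The numbers are those of the labels. Peak names carry another number or further words in 4 lists (both H3K4me1 lists of WT 1 h, and replicate 2 of RAD21 0 h and of RAD21 1 h). In RAD21 0 h replicate 2 they carry number 1 and BR2_BR3. Whether that list combines libraries is not in the labels and was not tested.

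The values that turned direction were, with fold ranked, the EGR1 promoter at WT 1 h (0.42). Without WT 1 h replicate 2, and with the term for the form, IER3 (-0.32) and JUND (-0.35) turned at WT 1 h, against 0.79 and 0.73 without WT 1 h replicate 1. With that term FOSL2 (-0.048), IER2 (-1.03) and IER3 (-0.61) turned at WT 10 h, and JUND (-0.049), IER2 (-0.57) and IER3 (-0.82) between the lines at 0 h. IER2 between the lines at 1 h stood at -0.65 with the term, with only lists named with input and without WT 1 h replicate 1, and at 1.19 without WT 1 h replicate 2. The cause was not tested.

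Member regions passing with fold ranked numbered 0 at WT 1 h, 0 at RAD21 1 h, 0 between the lines at 1 h and 0 for the interaction. With the term for the form they numbered 5 at WT 10 h and 15 for the interaction. Requiring peaks to cover 50% of the region left 6 member regions to test, of which 1 passed at WT 1 h, 2 at WT 10 h, 1 at RAD21 1 h, 2 between the lines at 0 h, 0 between them at 1 h and 0 for the interaction, fewer regions being tested by construction. Without 1 list the counts ran from 5 to 23 at WT 1 h, 2 to 22 at WT 10 h, 10 to 24 at RAD21 1 h, 12 to 31 and 3 to 22 between the lines at 0 h and 1 h, 5 to 21 for the interaction, and 0 to 0 for H3K4me1.

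Gained H3K27ac regions in WT at 1 h numbered 7 with the cover rule and 2 to 30 without 1 list, and lost ones 0 at -log10 q of at least 5 and 3 to 5 without 1 list. At WT 10 h gains were 9 at the stricter q, 46 with the cover rule and 21 to 31 without 1 list, and losses 0, 4 and 2 to 5. In the RAD21 line gains were 11 to 22 and losses 2 to 11 without 1 list, and 0 losses remained with the cover rule. H3K4me1 gains at 1 h were 0 at the stricter q, 5 with the cover rule and 3 to 10 without 1 list, and losses 1 with the cover rule and 1 to 13 without 1 list. At 10 h H3K4me1 gains were 3 to 8 without 1 list, and losses 0 at the stricter q, 0 with the cover rule and 2 to 13 without 1 list. The lists carry no read counts, and what depth limits was not measured.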
